A study of Mus musculus with 8 samples.

Results

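The sites described here were 518 promoter binding sites (BSs) of trimethylated lysine 27 of histone H3 (H3K27me3) that were found in mouse embryonic stem cells (mESCs) only after morphine treatment. A BS of a condition was a merged region with a MACS peak of both replicates of that condition. The 518 sites were the morphine BSs that overlapped no control BS and lay within 1 kb of the 5′ end of a named locus of the RNA-Seq count table. They were chosen on the peaks, so the presence, number and scores of peaks at them are a description and carry no test. The morphine libraries held 6899 BSs, the control libraries 8077, and the 2 conditions together 9551 distinct BSs. Of the 6899 morphine BSs, 1486 overlapped no control BS, and the 518 promoter sites were 34.9% of those. Another 2531 morphine BSs at promoters overlapped a control BS (sites found in both conditions), and 560 control BSs at promoters overlapped no morphine BS (sites found only in control).

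The cells were Oct4-GFP mESCs, which carry a green fluorescent protein driven by the Oct4 promoter, grown feeder-free. The study's methods describe their culture with leukaemia inhibitory factor and the inhibitors PD0325901 and CHIR99021 (LIF + 2i). Control cells received the NaCl vehicle, and treated cells received 10 µM morphine for 24 h. H3K27me3 ChIP-Seq and RNA-Seq were each done on 2 control and 2 morphine samples, 8 libraries in all. The study's methods call the ChIP-Seq replicates biological, but for the RNA-Seq replicates no source used here names separate cultures, so RNA p-values measure only the spread between these samples, which may be technical. Peak numbers ranged from 8681 (morphine replicate 1) to 13778 (control replicate 2) per library. The lists give no reads, and the study's methods state only a minimum depth for the ChIP libraries, so the number of reads behind each peak is unknown. Total RNA counts ran from 25081266 to 29531096 per library. The cells carried the markers of their label: 21 of 22 pluripotency genes were at 10 CPM (counts relative to the TMM-scaled library size) or more in every RNA library, among them Nanog (434 and 439 CPM in the controls, 396 and 410 after morphine), while 21 of 36 lineage factors were under 1 CPM in all libraries.

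H3K27me3 is written by Polycomb Repressive Complex 2 (PRC2), whose core holds Ezh2, Eed and Suz12. In mESCs the mark is known from CpG-rich promoters of silent developmental genes, and it is usually low at promoters of highly transcribed genes. Of 42 Hox genes, a textbook group of PRC2 targets, 0 lay at a promoter site of any of the 3 kinds in the peak lists used here, and 0 had a peak of any single library within 1 kb of a 5′ end. The study's methods name the Hox region as the positive control of a ChIP-qPCR for the mark, done before the libraries were made. These lists may be incomplete there and elsewhere, so the count describes the lists as used and does not show that the mark was absent at these genes. Of the 36 lineage factors, 1 lay at a site found only after morphine (Neurod1), 1 at a site found in both conditions and 0 at a site found only in control.

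The promoters of Suz12, which was at such a site, and of 4 of the 12 loci whose RNA changed are shown first. The 4 were taken from those of lowest adjusted p in the RNA test. Each sequence runs from 250 bp before to 49 bp after the first base of the locus, on the strand of the locus, in the GRCm38 (mm10) build. CpG dinucleotides are in capitals and all other bases in lower case.
Suz12, chr11:79992856-79993155 (+ strand): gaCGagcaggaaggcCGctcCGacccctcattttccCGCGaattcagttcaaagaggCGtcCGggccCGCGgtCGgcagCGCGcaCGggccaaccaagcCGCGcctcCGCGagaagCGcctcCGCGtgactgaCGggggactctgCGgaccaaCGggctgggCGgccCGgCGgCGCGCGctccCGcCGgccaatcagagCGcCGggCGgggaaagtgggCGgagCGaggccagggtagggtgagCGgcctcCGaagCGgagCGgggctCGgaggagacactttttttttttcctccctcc
Klf2, chr8:72318733-72319032 (+ strand): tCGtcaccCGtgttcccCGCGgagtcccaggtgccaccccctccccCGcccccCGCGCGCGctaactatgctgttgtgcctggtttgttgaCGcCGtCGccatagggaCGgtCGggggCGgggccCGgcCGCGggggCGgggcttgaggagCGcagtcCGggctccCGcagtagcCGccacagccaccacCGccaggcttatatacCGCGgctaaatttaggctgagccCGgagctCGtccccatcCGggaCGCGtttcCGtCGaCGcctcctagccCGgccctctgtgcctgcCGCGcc
Smchd1, chr17:71475294-71475593 (- strand): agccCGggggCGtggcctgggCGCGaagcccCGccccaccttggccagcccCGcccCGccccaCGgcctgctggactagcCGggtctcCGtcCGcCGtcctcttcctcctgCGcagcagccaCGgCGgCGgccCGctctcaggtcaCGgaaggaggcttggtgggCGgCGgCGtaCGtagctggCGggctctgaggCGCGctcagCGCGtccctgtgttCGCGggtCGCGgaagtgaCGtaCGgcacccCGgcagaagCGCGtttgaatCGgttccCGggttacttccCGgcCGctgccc
Sirt1, chr10:63338986-63339285 (- strand): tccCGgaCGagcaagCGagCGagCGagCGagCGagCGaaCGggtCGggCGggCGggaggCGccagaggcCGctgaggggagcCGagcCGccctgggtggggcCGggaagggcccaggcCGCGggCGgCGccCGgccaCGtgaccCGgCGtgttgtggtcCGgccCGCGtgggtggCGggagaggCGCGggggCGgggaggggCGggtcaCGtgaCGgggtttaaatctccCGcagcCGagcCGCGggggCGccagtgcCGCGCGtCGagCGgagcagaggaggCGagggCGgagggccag
AK011687, chr4:146937357-146937656 (- strand): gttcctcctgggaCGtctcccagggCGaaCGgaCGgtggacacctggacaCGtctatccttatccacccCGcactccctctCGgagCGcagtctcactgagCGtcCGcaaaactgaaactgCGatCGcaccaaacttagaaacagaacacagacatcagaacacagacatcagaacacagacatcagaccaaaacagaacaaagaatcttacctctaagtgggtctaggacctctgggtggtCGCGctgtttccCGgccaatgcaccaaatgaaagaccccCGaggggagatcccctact
The Suz12 window held 41 CpGs, that of Sirt1 47, and those of Smchd1 and Klf2 40 and 37, against a median of 6 over all 35516 distinct windows of named loci. The AK011687 window, with 16 CpGs and a GC content of 54.3%, was the poorest of the 5. The Klf2 and Smchd1 windows lay partly inside their H3K27me3 sites. The sites of Suz12, AK011687 and Sirt1 began 147, 300 and 341 bp downstream of the 5′ end, so these printed windows lay just outside them.

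Peak scores at the 518 sites were lower than at the sites found in both conditions and of the same order as at the sites found only in control, by medians that were not tested. Scores are -10 times log10 p and start at 50 in these lists. The median score at the sites was 82.3 in morphine replicate 1 and 83.4 in replicate 2, against 122 and 144 at the sites found in both conditions. At the sites found only in control the medians were 74.9 and 85.5 in the 2 control replicates. Both scores reached 100 at 87 of the 518 sites. Peaks of a single control library were common, which the definition of a BS allows. No control peak lay at 201 of the 518 sites (38.8%), a peak of control replicate 1 alone at 166, a peak of control replicate 2 alone at 148, and peaks of both control libraries that did not overlap each other at 3. Among the 317 sites with a control peak, that peak scored higher than both morphine peaks at 90 (28.4%). Penk, the gene of the opioid peptide precursor proenkephalin, was one of them and is named here after its values were seen: its 6645 bp site scored 81.3 and 150 in the morphine replicates and 247 in control replicate 1, with no peak in control replicate 2. In the other direction, 150 of the 560 sites found only in control (26.8%) had no peak in either morphine library.

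**Figure D1:**
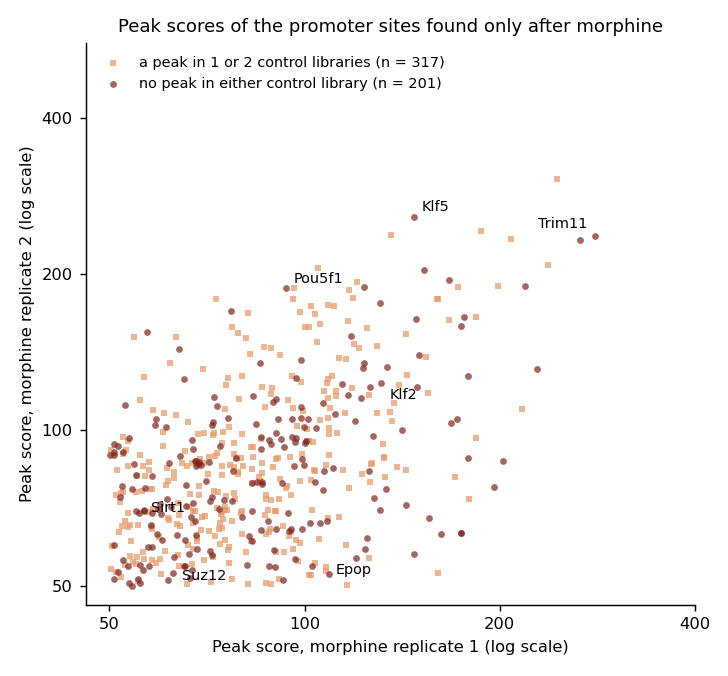
Peak scores (-10 times the log10 of the p-value, log scales) of the 518 promoter sites found only after morphine, replicate 1 across and replicate 2 upwards; dark circles are the 201 sites with no control peak and light squares the 317 with one. Scores start at 50 and have medians of 82.3 and 83.4, and both kinds are mixed over the range.

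The 8 sites with the strongest weaker peak among those without a control peak were at known genes of varied function. Trim11, an E3 ubiquitin ligase gene, scored 281 and 237, and Plk5, of the polo-like kinase family, 266 and 233. The next 4 were at Dnaaf2, a dynein arm assembly factor, on the opposite strand from 9330151L19Rik (219 and 190), at Nudt4, a diphosphoinositol polyphosphate phosphohydrolase (167 and 195), at the Hsp70 co-chaperone gene Bag5 and the neighbouring Apopt1 (176 and 166), and at the thiamine transporter gene Slc19a2 (174 and 159). Malat1, a nuclear long non-coding RNA (153 and 204), and Adora1, the adenosine A1 receptor gene (148 and 164), completed the 8. None of the loci at these 8 sites passed the RNA test: Trim11 was at 75.6 and 78.1 CPM in the controls and 91.7 and 86.9 CPM after morphine, a log2 fold change of 0.21 ± 0.055 (SE; edgeR quasi-likelihood test, adjusted p = 0.0689). Malat1 was at 59.8 and 43.8 CPM in the controls and 34.8 and 49.8 CPM after morphine, and its groups overlapped.

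At the limits of the definition, the 3 sites farthest from a 5′ end within 1 kb were at Zfp358 (986 bp), Cdh3 (966 bp) and Magi1 (960 bp), and the 3 nearest morphine BSs left out for distance were at 4931429L15Rik (1047 bp), Hs1bp3 (1089 bp) and the locus named AU042671/Hectd4 (1097 bp). The smallest gaps to a control BS were 229 bp at Sdc1, 323 bp at Fgfrl1 and 631 bp at AK011687. The smallest overlaps of the sites left out for overlap were 1086 bp at Fam136a, 1220 bp at Car2 and 1328 bp at Asmt.

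Widths, which the definition did not use directly, ran on without a gap from narrow sites to wide ones. Their median width was 3097 bp with quartiles of 2120 and 5881 bp, against a median of 4144 bp at the sites found in both conditions and 3532 bp at those found only in control. There were 255 sites under 3 kb (49.2%), 98 from 3 to 5 kb and 165 of 5 kb or more (31.9%), whereas 25.4% of the sites found in both conditions and 37.7% of those found only in control were under 3 kb. These limits were set after the widths were seen. The 3 widest sites were at Slc22a4, an organic cation/carnitine transporter gene (9127 bp), Osbpl6, of the oxysterol-binding protein family (8482 bp), and Srd5a2, a steroid 5-alpha-reductase gene (8264 bp). The Slc22a4 and Osbpl6 sites had a peak in control replicate 1 and the Srd5a2 site had no control peak.

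Narrow sites had the higher RNA levels and wide sites the lower ones. RNA level is given as CPM per kb of locus length, averaged over the 4 libraries, and a site took the level of its highest locus. The median level was 4.91 CPM per kb at the 255 sites under 3 kb (quartiles 0.814 and 14.8), 0.694 at those from 3 to 5 kb and 0.179 at the 165 of 5 kb or more (quartiles 0.0368 and 0.841). A level over 10 CPM per kb was found at 88 of the 255 narrow sites (34.5%) and at 8 of the 165 wide ones (4.85%). The same shares were 21.9% and 6.74% at the sites found in both conditions, and 14.7% and 9.20% at the sites found only in control. Spearman's correlation of width with level over the 518 sites was -0.49, a description over sites that share the same libraries. In poly(A) RNA of whole cultures, fewer cells that transcribe a gene and less RNA per cell cannot be told apart.

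**Figure D2:**
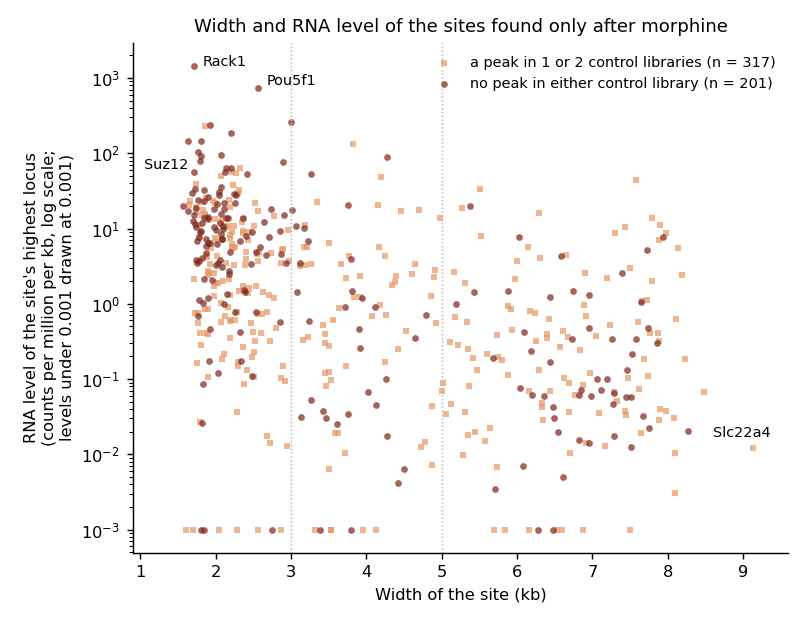
Width in kb (across) and RNA level in CPM per kb of the highest locus (upwards, log scale, levels under 0.001 drawn at 0.001) of the 518 sites; dark circles are sites with no control peak, light squares sites with one, and the dotted lines mark 3 and 5 kb. The crowd at the upper left holds the narrow sites of transcribed genes such as Rack1 and Pou5f1, and the wide sites of 5 kb or more have a median of 0.179 CPM per kb.

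The 8 loci of highest CPM, a level not divided by locus length, all had sites of under 4 kb, 7 of them under 3 kb and without any control peak. Rack1, a scaffold protein of the ribosome, was at 3398 and 3507 CPM in the controls and 3755 and 3706 CPM after morphine, and its 1709 bp site covered the 5′ end with scores of 98.9 and 106. Pou5f1, which encodes the pluripotency factor Oct4 and whose promoter drives the reporter of these cells, was at 1183 and 1272 CPM in the controls and 1507 and 1370 CPM after morphine. Its 2559 bp site scored 93.6 and 188. The morphine libraries of both genes lay above their control libraries, but neither passed the RNA test (log2 fold changes of 0.11 ± 0.037, adjusted p = 0.122, and 0.23 ± 0.052, adjusted p = 0.052). For Pou5f1 this depended on the fit: it passed in 8 of 12 other RNA fits, among them edgeR's exact test (adjusted p = 0.0308) and DESeq2 (adjusted p = 0.00347), and did not pass in the other 4, among them the fit with length and GC trends removed (0.245). The other 6 were Suz12, the actin-bundling gene Fscn1, the mitochondrial kinase anchor Akap1, the proteasome activator Psme4, the cytosolic isocitrate dehydrogenase Idh1 and Epop. Fscn1 (scores of 95.6 and 97.1), Akap1 (91.1 and 105), Psme4 (95.6 and 105) and Idh1 (55.8 and 50.7) had log2 fold changes between -0.22 and 0.11 and did not pass. Epop was the exception among the 8 in width (3820 bp), in carrying a peak of control replicate 1 (score 87.2) and in passing the RNA test.

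The narrow sites began close to the 5′ end and ran downstream. At sites under 3 kb the upstream edge lay at a median of -149 bp and the downstream edge at 1901 bp from the nearest 5′ end, and the upstream edge was within 500 bp of the 5′ end at 172 of 255 (67.5%). The sites found in both conditions that were under 3 kb had a similar form, with median edges at -179 and 2193 bp and a share of 58.6% of 643, and those found only in control had a share of 34.1%. At the 88 narrow sites over 10 CPM per kb the share was 79.5%, against 47.5% of 141 such sites found in both conditions and 22.6% of 31 found only in control, and these differences were not tested. The wide sites of 5 kb or more ran from a median of -3096 bp to 3660 bp and covered the 5′ end at 158 of 165 (95.8%). Over all 518, the 5′ end itself lay inside 401 sites (77.4%), against 78.3% of the sites found in both conditions and 51.8% of those found only in control. Coverage was highest at 700 bp downstream of the 5′ end, where 87.5% of the sites were present. The sites found only in control had their highest coverage, 66.1%, at 1000 bp downstream, and those found in both conditions, 85.4%, at 900 bp. In all, 32 of the 518 sites (6.18%) lay wholly upstream of the 5′ end, against 214 of 2531 (8.46%) of the sites found in both conditions and 127 of 560 (22.7%) of those found only in control.

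**Figure D3:**
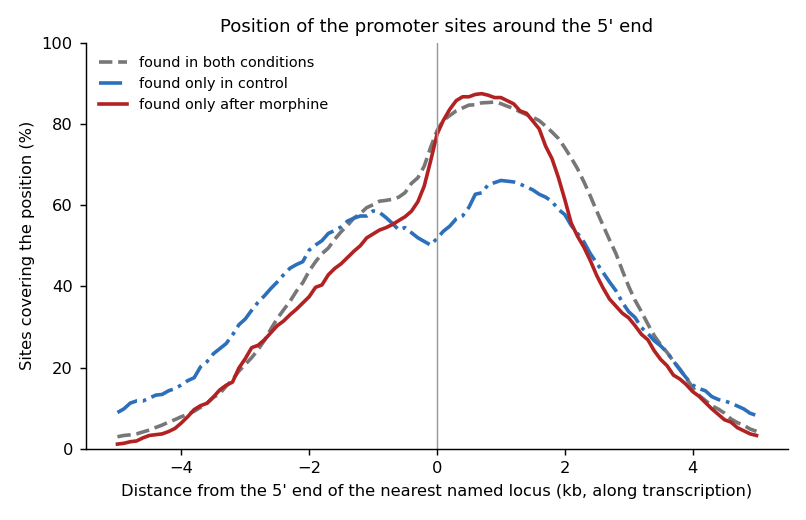
Share of sites (upwards, in percent) that cover each position from 5 kb upstream to 5 kb downstream of the nearest 5′ end (across, in kb along transcription), for the 518 sites found only after morphine (solid), 560 only in control (dash-dot) and 2531 in both (dashed). The first and the last reach 77.4% and 78.3% at the 5′ end, where the sites found only in control dip to 51.8%.

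The promoters at the sites were rich in CpG, to the degree of other H3K27me3 promoters in these lists. The 749 named loci at the 518 sites had 629 distinct windows of 300 bp around the 5′ end, with a median GC content of 61.7% and a median CpG observed-to-expected ratio of 0.677. The sites found in both conditions had 62.3% and 0.685 over 3104 windows, the sites found only in control 60% and 0.626 over 674, and all named loci 52.3% and 0.359 over 35516. The ratio was above 0.6 in 370 of the 629 windows (58.8%), against 60.3%, 52.8% and 34.2% in the same order. It was above 0.6 in 65.2% of the windows at sites without a control peak and in 54.8% at sites with one.

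**Figure D4:**
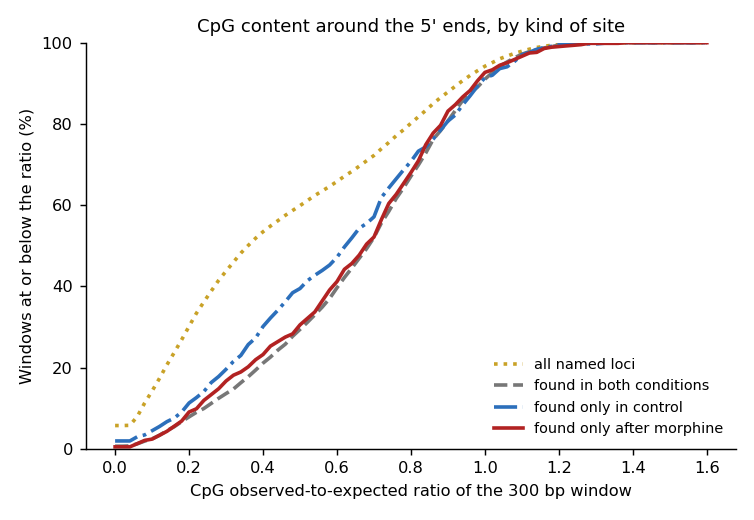
Cumulative share of 300 bp promoter windows (upwards, in percent) by CpG observed-to-expected ratio (across), for 629 windows at sites found only after morphine (solid), 674 at sites found only in control (dash-dot), 3104 at sites found in both (dashed) and 35516 of all named loci (dotted). The solid and dashed lines nearly coincide, with medians of 0.677 and 0.685, and the dotted line rises far earlier, with a median of 0.359.

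Short promoter motifs were counted on both strands of the same windows, and none of the words searched contains another. The GC box GGGCGG was in 377 of 629 windows (59.9%), against 33.6% of all named loci and 61.9% of the sites found in both conditions. The TATA box TATAAA was in 35 windows (5.56%), against 13.3% of all named loci and 7.70% of the sites found in both conditions, and the CCAAT box in 187 (29.7%), against 37.4% and 31.1%. The ETS core CCGGAA was in 103 windows (16.4%), against 13.7% and 13.8%, and the E-box CACGTG in 63 (10.0%), against 6.61% and 9.02%. The cAMP response element TGACGTCA (2.07%), the NRF1 core CGCATGCG (1.75%) and the YY1 core AAGATGGC (1.91%) were rare, as they were over all named loci (1.77%, 1.75% and 2.71%). Of the windows printed above, those of Suz12, Klf2, Smchd1 and Sirt1 held the GC box, those of Suz12 and AK011687 the CCAAT box and that of Sirt1 the E-box. A match is a description of the letters and says nothing of a factor.

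RNA-Seq counts, which the choice of sites did not use, were compared between the 2 control and the 2 morphine libraries. Of the 749 loci, 492 had enough counts to be tested, 257 did not, and 62 of the latter had 0 counts in all libraries. Some loci are overlapping assemblies of one gene, and the 492 carried 468 distinct sets of counts. By edgeR's quasi-likelihood test at an FDR of 0.05, 12 of the 492 changed (2.44%), against 1.52% of the 20350 loci tested over the whole table. Of the 12, 4 were upregulated (0.614% of all loci were) and 8 downregulated (0.904% of all loci were). At an unadjusted p under 0.05 the share was 19.1% of the 492 against 20.5% of all loci. The median log2 fold change was 0.02 at the sites and 0.00 over all loci, and the central 80% lay between -0.27 and 0.27 at the sites and between -0.30 and 0.29 over all. At the sites found in both conditions 23 of 2531 tested loci changed (0.909%). At the sites found only in control 0 of 485 did by this test, with 79 at an unadjusted p under 0.05, 5 called by edgeR's exact test and 2 by DESeq2. The differences between these shares were not tested.

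The 4 upregulated loci were Epop, Klf2, Tmem132a and Ltbr. Epop encodes a protein that joins PRC2 to the elongin BC complex, and it was at 259 and 274 CPM in the controls and 370 and 327 CPM after morphine, a log2 fold change of 0.39 ± 0.058 (SE; edgeR adjusted p = 0.0144). Klf2, a Krüppel-like factor of the naive pluripotency network, was at 149 and 143 CPM in the controls and 188 and 179 CPM after morphine, a log2 fold change of 0.33 ± 0.050 (edgeR adjusted p = 0.0151). Its 2896 bp site covered the 5′ end, scored 131 and 123 and had no control peak. Tmem132a, a transmembrane protein gene whose locus overlaps Slc15a3 on the other strand, was at 28.0 and 29.1 CPM in the controls and 36.0 and 34.5 CPM after morphine. Ltbr, the lymphotoxin beta receptor gene, was at 10.4 and 10.7 CPM in the controls and 14.3 and 13.8 CPM after morphine. In each of the 4, the lower morphine library exceeded the higher control library.

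The 8 downregulated loci were Smchd1, Sirt1, Med13, Mga, Atad5, Man2a1, Pgap1 and AK011687. Smchd1, a chromatin protein of X-chromosome inactivation, was at 153 and 146 CPM in the controls and 120 and 128 CPM after morphine, and it fell by 0.27 on the log2 scale (SE 0.053, edgeR adjusted p = 0.0384). Sirt1, an NAD-dependent deacetylase, was at 249 and 239 CPM in the controls and 183 and 211 CPM after morphine, and it fell by 0.31 (SE 0.062, edgeR adjusted p = 0.0419). Both had narrow sites without a control peak: that of Smchd1 was 1906 bp wide and scored 71.4 and 86.6, and that of Sirt1 was 1711 bp wide and scored 67.7 and 66.7. Atad5, which unloads the replication clamp from DNA, was at 105 and 106 CPM in the controls and 86.2 and 92.3 CPM after morphine. Its 1727 bp site, with scores of 124 and 59.1, also had no control peak.

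The other 5 downregulated loci had control peaks: Med13, Man2a1, Pgap1 and AK011687 a peak of 1 control library at their site, and Mga peaks of both over 2 sites. Med13, a subunit of the Mediator kinase module, was at 120 and 113 CPM in the controls and 84.6 and 99.5 CPM after morphine. The locus overlaps Brip1os on the other strand. Its site lay 813 bp upstream of the 5′ end, and the peak of control replicate 1 there scored 128, above both morphine peaks (55.8 and 89.7). Mga, a MAX partner of the MYC network, was at 256 and 245 CPM in the controls and 196 and 221 CPM after morphine. The locus is named AK132911/Mga in the table, and its 5′ end is not a GENCODE start of Mga. It had 2 neighbouring sites: one over the 5′ end with a peak of control replicate 2 (score 77.2), and one 535 bp from it with a peak of control replicate 1 (score 51.3). Man2a1, a Golgi mannosidase gene, had log2 fold change -0.25 ± 0.053 and Pgap1, which acts on GPI anchors, -0.39 ± 0.084. AK011687, named only after a cDNA, was at 31.8 and 28.2 CPM in the controls and 19.5 and 23.2 CPM after morphine, a log2 fold change of -0.48 ± 0.092 (edgeR adjusted p = 0.0342). It overlaps unnamed loci. In all 8, both morphine libraries lay below both control libraries, and morphine replicate 1 was the lower of the 2.

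**Figure D5:**
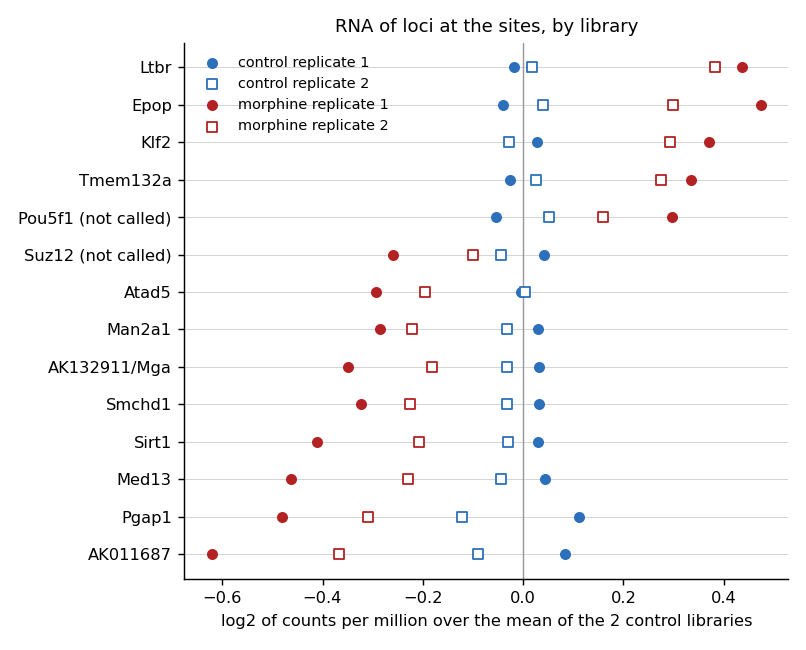
RNA of the 12 loci that passed the test and of Suz12 and Pou5f1, which did not, as log2 of CPM over the mean of the 2 control libraries (across), with 1 mark for each library (blue control, red morphine, filled circles replicate 1, open squares replicate 2). The red marks of all 14 loci lie to one side of the blue ones, and morphine replicate 1 lies farther from the controls than replicate 2 in each.

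Locus base composition moved with these calls. The GC content of the locus was 60.2 to 66.9% at the 4 upregulated loci and 39.3 to 43.2% at the 8 downregulated ones, against medians of 52.0% over the 492 loci and 49.7% over all loci tested. Spearman's correlation of GC content with log2 fold change was 0.48 over 20335 loci and 0.46 over the 492, a description over loci that share 4 libraries. With trends in length and GC content removed, all 12 log2 fold changes kept their sign but became smaller, by over 1.5 times in 11 of the 12, with AK011687 the exception (-0.48 to -0.35). Those of the upregulated loci were then 0.14 (Tmem132a and Klf2) to 0.23 (Ltbr), with Epop at 0.20, and those of the downregulated loci other than AK011687 -0.19 (Sirt1) to -0.07 (Atad5). Their adjusted p ran from 0.0584 (Epop) to 0.513 (Atad5), and 1 of the 492 loci passed, Idh1 (log2 fold change 0.18, adjusted p = 0.0313), against 0.452% of 20335 loci. Without morphine replicate 1, 0 of 513 loci passed the edgeR test, with 46 at an unadjusted p under 0.05, but only 13 of all 21224 loci (0.0613%) passed in that fit. By edgeR's exact test 25 of the 492 (5.08%) passed, 14 upregulated and 11 downregulated, against 3.88% of all loci, and with scaling to total counts alone 21 passed (4.27%), 13 and 8, against 2.53% of all loci.

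A gene of a list was counted at a site where a GENCODE start of that gene lay within 1 kb of the 5′ end of the locus on its strand. Among PRC2 genes, 1 of the 5 core subunits and 1 of 8 accessory subunits lay at a site found only after morphine. Suz12, the core subunit that holds the complex together, was at 491 and 463 CPM in the controls and 399 and 445 CPM after morphine. Both morphine libraries lay below both controls, but the log2 fold change of -0.18 ± 0.055 did not pass (edgeR adjusted p = 0.107). It passed in 4 of 12 other fits: DESeq2 (adjusted p = 0.0464), no count filter (0.00565), without control replicate 2 (0.0204) and without morphine replicate 2 (0.0400). It was -0.03 with the length and GC trends removed (adjusted p = 0.747). The Suz12 site was 1763 bp wide and scored 62.7 and 53.0, near the floor, with no control peak. No peak of any library lay within 1 kb of the 5′ end of the other core genes, Ezh2, Eed, Rbbp4 and Rbbp7, whose log2 fold changes of -0.15, -0.06, -0.08 and -0.06 did not pass either. The accessory gene at a site was Epop. Of the others, Phf19 and Lcor lay at sites found in both conditions. Peaks of all 4 libraries came within 1 kb of the 5′ end at Phf19 and the peak of morphine replicate 1 alone at Lcor, and the other 5 had no peak there.

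Of 22 pluripotency genes, 4 lay at a site found only after morphine (Pou5f1, Klf2, Klf4 and Klf5), 0 at a site found in both conditions and 0 at a site found only in control. Over all 32794 names in the count table, 527 (1.61%) lay at the sites found only after morphine. All 4 sites were narrow, from 2201 to 2896 bp, and none had a control peak. Klf4, a reprogramming factor, had scores of 85.7 and 91.8 and was at 208 and 200 CPM in the controls and 203 and 197 CPM after morphine. Klf5 had the higher scores, 148 and 258, and was at 189 and 182 CPM in the controls and 195 and 186 CPM after morphine. The RNA of both overlapped between conditions, with log2 fold changes of -0.03 ± 0.047 and 0.04 ± 0.049.

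Of the 21 genes of DNA methylation and heterochromatin, Setdb1, a histone H3K9 methyltransferase, and Smchd1 were at the sites. Setdb1 was at 216 and 221 CPM in the controls and 214 and 221 CPM after morphine (log2 fold change -0.01 ± 0.046) and had a 1726 bp site with scores of 87.9 and 66.9. Of 18 deacetylase genes Sirt1 was at a site, of 25 DNA repair genes Atad5, and of 35 cell cycle and replication genes the cyclin gene Ccnd1 (scores of 175 and 63.3, log2 fold change -0.06 ± 0.052). Of 25 BMP, Nodal and TGF-beta genes, 11 lay at sites found in both conditions. The signal transducers Smad3 and Smad4 of that list had log2 fold changes of -0.12 and -0.01. They were at sites found only after morphine with a peak of control replicate 2. Of 41 Wnt genes the ligand gene Wnt2 was at a site found only after morphine, with 5 or fewer counts in each library. Of 36 lineage factors, Neurod1, a neuronal differentiation factor, had a 6737 bp site with scores of 52.5 and 56.2. Its counts cannot be separated from Cerkl, with which it forms 1 locus. Neither PRC1 (21 genes), H3K27 demethylases and trithorax (13), chromatin remodellers (21) nor opioid receptors (4) had a gene at the sites.

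Gene families were taken by the start of the name. Of these, 19 of 376 Slc genes (5.05%), 7 of 251 Tmem genes (2.79%) and 4 of 392 Zfp genes (1.02%) were at the sites. So were 3 of 98 Kcn potassium channel genes (3.06%) and 2 of 1119 Olfr genes (0.179%), against 1.61% of all 32794 names. At the sites found in both conditions were 65 Slc, 32 Tmem, 30 Zfp, 26 Kcn and 7 Olfr genes, against 2600 of all names. No gene of 95 Rpl and Rps, 78 Mrpl and Mrps, 46 Nduf, 56 Usp, 42 Hox or 26 Cacn genes was at the sites found only after morphine. Of 31 Med genes Med13 was, and of 50 Psm genes Psme4 and Psmb11 were. The 8 Slc genes of highest RNA were Slc19a2, Slc9a3r1, Slc25a15, Slc1a5, Slc12a4, Slc4a7, Slc12a2 and Slc47a1. None of the 13 Slc loci tested passed. Slc9a3r1, a scaffold for the sodium-hydrogen exchanger, came nearest, with 87.7 and 96.2 CPM in the controls, 115 and 105 CPM after morphine and a log2 fold change of 0.26 ± 0.063 (edgeR adjusted p = 0.0582). Slc1a5, a glutamine transporter gene, was at 75.9 and 80.5 CPM in the controls and 87.3 and 86.4 CPM after morphine (adjusted p = 0.152). Slc12a2, a sodium-potassium-chloride cotransporter gene, had a log2 fold change of -0.24 ± 0.062 (adjusted p = 0.0706). The 7 Tmem genes were Tmem132a, Tmem120b, Tmem159, Tmem44, Tmem74, Tmem8 and Tmem9b, the Zfp genes Zfp316, Zfp354a, Zfp358 and Zfp575, and the Kcn genes Kcnh3, Kcnk1 and Kcnk3. Apart from Tmem132a, none of these passed the test or, as for Zfp575, it could not be tested.

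Sites without a control peak had higher RNA levels than sites with one, in a comparison that was not tested. The median level of the highest locus was 3.35 CPM per kb at the 201 sites without a control peak and 0.763 at the 317 with one, and 30.3% and 15.8% of them were over 10 CPM per kb. At the sites found only in control, the shares over 10 CPM per kb were 11.3% without and 11.5% with a morphine peak. The weaker morphine peak scored a median of 68.0 at sites without a control peak and 70.9 at sites with one. Of the tested loci, 4 of 195 at sites without a control peak changed (2.05%: Klf2, Smchd1, Sirt1 and Atad5), and 8 of 297 at sites with one (2.69%), against 1.52% of all loci.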

How the data were processed

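H3K27me3 ChIP-Seq and RNA-Seq were done on 2 control and 2 morphine samples each. The submitters' processing notes name Trim Galore 0.6.2, Bowtie2 2.3.5.1, MACS, HISAT2 2.1.0, StringTie 1.3.6, featureCounts 1.6.4 and edgeR 3.26.4. The authors aligned reads to mm10 and called peaks library by library with a p-value limit of 1e-05, and the deposited score is -10 times log10 of a peak's p-value. The control given to the peak caller is not given in the sources used here, and the labels and the methods name different suppliers of the antibody. The authors deposited raw counts per assembled locus. Use of strand and reads with several alignments are not given either, so overlapping loci are uncertain.

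Peaks were merged and compared with an overlap of 1 bp. The 5′ end was the lowest start or the highest end of a locus, by strand. GENCODE vM21 was used for gene names at 5′ ends, and NCBI RefSeq's GRCm38.p6 sequence for windows. After filterByExpr and TMM, counts were tested over all loci with edgeR 4.0.16 in R 4.3.3 (quasi-likelihood, Benjamini-Hochberg, FDR 0.05), with DESeq2 1.42.0 as an alternative. The quasi-likelihood fit was also run on simulated counts drawn from the means, spread and library sizes of these libraries, with an outcome not reported here. The trend fit used natural splines of locus length and GC content with 5 degrees of freedom. Levels are CPM on TMM library sizes, and fold changes are those of the fit.

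Loci are named that passed the RNA test, that had the 8 strongest sites without a control peak, the 8 highest CPM or the 3 widest sites, that lay nearest to the 1 kb limit, or that belonged to the gene lists (the 8 of highest CPM where a list had more). Penk, Drd2, Slc18a2, Insr, and loci nearest to the overlap limit were named after their values were seen. The sites and the gene lists were chosen with earlier results of these data known. The peak lists carry no depth. One promoter sequence is not reported here.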

Additional observations from a re-analysis of the deposited data

How the results depend on the processing

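The number of sites stayed within 1.5 times of 518 with equal numbers of the strongest peaks, promoters of 3 or 0.5 kb, a 50% overlap of replicates, a gap of over 1 kb to control BSs, and without either control library. It was 294 with a peak score of at least 100, and leaving out each ChIP library in turn gave 349 to 986. The sites with no control peak numbered 128 with that score, and 201 to 483 leaving out each ChIP library.

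The 12 loci called by RNA-Seq (2.44% of 492, against 1.52% of all loci) became 25 by edgeR's exact test (5.08% against 3.88%), 26 by its likelihood ratio test (5.28% against 4.13%), 19 by DESeq2 (12.2% of 156 loci with an adjusted p, against 8.27%), 21 with total counts scaling (4.27% against 2.53%) and 40 of 687 with no count filter (5.82% against 5.44%). With sites free of any control peak there were 4 of 195 (2.05% against 1.52%). The share was below that of all loci in 6 settings: 1 locus with length and GC trends removed (0.203% against 0.452%), 0 at an FDR of 0.01 (against 0.118%, with 94 at an unadjusted p under 0.05), 2 of 292 with sites of a peak score of at least 100 (0.685% against 1.52%), 27 with the replicate block (5.49% against 5.54%), 33 without control replicate 2 (6.55% against 7.67%) and 0 without morphine replicate 1 (against 0.0613%). Leaving out each RNA library gave 0 to 33. RLE scaling, equal peak numbers and the other promoter widths gave 9 to 13. For the block, samples of the same number deviated together with a correlation of 0.03 over 20350 loci, so the numbers were not taken as pairs. No log2 fold change of the 12, Suz12 or Pou5f1 turned its sign in 12 RNA settings. Suz12 passed in 4 of these settings and Pou5f1 in 8, and neither passed in the reported fit. Of the 12, Ltbr passed in 7 of these settings, Tmem132a and Man2a1 in 8, Pgap1 in 9 and the others in 10. All 12 lost the call with the trends removed and without morphine replicate 1.

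The peak lists hold no reads, so the size of the H3K27me3 signal at a site could not be compared between conditions here. The cause of these shifts was not tested.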

Other observations

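Further genes at the sites are named here after their values were seen. Drd2, the dopamine D2 receptor gene, had a 4256 bp site over its 5′ end with scores of 118 and 152 and no control peak. Its RNA was at 3 and 4 counts in the controls and 5 and 5 counts after morphine, too few to be tested. Penk RNA was at 6.48 and 7.10 CPM in the controls and 7.35 and 7.60 CPM after morphine, with a log2 fold change of 0.14 ± 0.116 (SE; edgeR quasi-likelihood test, adjusted p = 0.542). Slc18a2, the vesicular monoamine transporter gene, had a 5′ end inside a site with scores of 80.0 and 69.9 and a peak of 63.6 in control replicate 1, and 17 to 26 counts in each library. Insr, the insulin receptor gene, was at one of the 3 sites with peaks of both control libraries, which scored 63.0 and 63.4 and did not overlap each other.

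The sites were spread over 20 chromosomes, with 57 on chromosome 11, 46 on chromosome 5 and 6 on the X chromosome. These chromosome counts were not set beside those of other sites. A protein-coding start lay at 471 of the 518 (90.9%), against 91.3% of the sites found in both conditions and 84.8% of those found only in control. In 30 (5.79%), 5′ ends on both strands ran away from each other, against 5.53% and 3.57% in the same order.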
